A study of Homo sapiens with 6 samples.

Results

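The genes described here are the 4 receptors of the ERBB family (EGFR, ERBB2, ERBB3 and ERBB4), 4 genes whose products restrain them (ERRFI1, LRIG1, LRIG3 and CBL) and the receptor ligand gene NRG1. They were taken by symbol from an RNA-sequencing table of 27216 rows, and all 9 had a row. The table covers H1975, an established human line of non-small cell lung cancer (NSCLC) with a mutant EGFR. In it 3 samples are parental (0 h) and 3 are adapted, taken after 72 h with Osi. Osi is osimertinib, a third-generation tyrosine kinase inhibitor (TKI) that binds covalently to mutant EGFR, and the labels give its concentration as 1000 nM. A reagent list of the study gives a lower concentration without naming the assay. Every sample carries the same genotype label, WT, and is the same line, so the EGFR mutation is shared by both groups. The parental columns are named for DMSO, the solvent, and whether those cells were kept in solvent or untreated, and for how long, is not stated. In the adapted samples dying cells had been rinsed off before RNA was taken, so the values are those of cells that survived 72 h and time in culture cannot be told apart from treatment. No source says that the replicates came from separate cultures, and the p-values measure the spread between these samples, which may be technical.

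ERBB receptors are transmembrane tyrosine kinases that pair after a ligand binds and phosphorylate each other's tails. EGFR binds EGF-type ligands, ERBB3 and ERBB4 bind neuregulins such as the product of NRG1, and ERBB2 has no known ligand and serves as the preferred partner of the others, while the kinase of ERBB3 is weak and its tail recruits PI3K. ERRFI1 (also called MIG6) binds and blocks the active kinase pair and is itself a product of ERK signalling, CBL is a ubiquitin ligase that sends activated receptors to the lysosome, and the LRIG proteins are transmembrane proteins of which LRIG1 promotes loss of receptor protein and LRIG3 is less well understood.

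In GRCh38, as annotated by GENCODE v29, EGFR spans chr7:55019021-55211628 on the plus strand and ERBB2 spans chr17:39687914-39730426 on the plus strand. ERBB3 lies on the plus strand at chr12:56076799-56103505 and ERBB4 on the minus strand at chr2:211375717-212538841. ERRFI1 lies on the minus strand at chr1:8004404-8026308, CBL on the plus strand at chr11:119206276-119313926, LRIG1 on the minus strand at chr3:66378797-66501263 and LRIG3 on the minus strand at chr12:58872149-58920522. The position of NRG1 is not reported here, and genes that overlap it or lie near it were not examined. For 6 of the 9 genes RefSeq (GRCh38.p14) gave a promoter window, of which the 250 bases upstream of each start were read. Both strands were searched for 9 short motifs. The GC box, which Sp1-type factors bind, was searched as GGGCGG. AP-2 factors were searched as GCCNNNGGC, and AP-1, the FOS and JUN pair, was searched as TGANTCA. The element named CRE, which cyclic AMP response factors bind, was searched as TGACGTCA, and the FOXO motif was searched as GTAAACA. The core of ETS factors was searched as CCGGAA and the site of TEAD factors, partners of YAP, was searched as GGAATG. The EGR motif was searched as GCGNGGGCG, whose letters can overlap a GC box, and the TATA box was searched as TATAAA. The windows at the annotated gene starts of EGFR and ERRFI1 are shown because these genes had the highest mRNA levels of the 9 in parental cells and then went separate ways. For ERBB2 only 30 bases are shown, those that hold its ETS matches, and no more of the window, because 180 of its 250 bases, the printed ones included, lie in annotated ERBB2 exons. Capitals mark the motif matches, and positions count back from the transcription start.

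EGFR, chr7:55018767-55019016, plus strand: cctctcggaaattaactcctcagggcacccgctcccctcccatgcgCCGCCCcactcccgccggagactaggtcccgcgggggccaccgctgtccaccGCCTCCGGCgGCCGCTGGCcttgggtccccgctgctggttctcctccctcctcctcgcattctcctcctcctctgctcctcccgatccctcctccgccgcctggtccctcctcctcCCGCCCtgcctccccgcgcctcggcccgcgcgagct

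ERRFI1, chr1:8026310-8026559, minus strand: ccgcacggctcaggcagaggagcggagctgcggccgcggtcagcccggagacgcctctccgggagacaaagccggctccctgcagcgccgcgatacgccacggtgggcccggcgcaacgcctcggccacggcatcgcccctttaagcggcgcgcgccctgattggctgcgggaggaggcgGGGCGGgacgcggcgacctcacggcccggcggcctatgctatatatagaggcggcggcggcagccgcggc

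ERBB2, chr17:39688062-39688091, plus strand: cttccacTTCCGGagtaaCCGGAAgttcct

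The EGFR window shown, 73.6% G or C, held GC boxes at -204 and -36 and AP-2 matches at -152 and -142. A second EGFR window, at chr7:55109589-55109838, was 38.8% G or C and held AP-1 matches at -232 and -136, TATA matches at -146 and -36 and a TEAD match at -114, with no GC box and no AP-2 match. Of the 250 bases of this second window, 116 lie in annotated EGFR exons. The ERRFI1 window, 75.2% G or C, held 1 GC box, at -70. The ERBB2 piece held ETS matches on opposite strands at -25 and -14, and the rest of its window added an AP-1 match at -222. An ETS match also lay at -143 in the ERBB4 window, which is not shown. The LRIG1 and LRIG3 windows, not shown either, held no ETS match. Among all 35116 windows of this length, 42.6% held a GC box, 19.8% an AP-2 match, 14.5% an ETS match and 6.6% an AP-1 match, and the median content of G or C was 58%. The other motifs were found in 1.6% (CRE), 3.0% (FOXO), 11.9% (TEAD), 8.4% (EGR) and 10.7% (TATA) of all windows, and none of them in the 3 windows from which letters are shown. A match is a description of these letters and was not tested as a binding site.

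The values are on the scale log2(FPKM + 1). FPKM divides the fragments of a gene by its transcript length and by all fragments mapped in the sample. It is meant to make levels comparable between genes. The unit was inferred from the values and the depth is unknown. The spread between replicates is therefore the only error given. FPKM is a share of the sample's RNA, so fewer cells of one kind and less RNA per cell cannot be told apart. According to the labels the RNA was first treated with RNase R, an enzyme that degrades linear RNA and is used to enrich circles, whereas the methods of the study mention total RNA only. Its part in the values was not tested. Comparisons of level between genes therefore assume that the unit is right and that the enzyme acted on the genes alike.

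The 9 genes did not move together: ERBB2 mRNA nearly doubled, ERRFI1 mRNA dropped 4.56-fold, and EGFR mRNA stayed within 0.16 log2 units of its parental level by its 95% confidence interval. Of the 7 genes above the filter on low values (a mean of at least 1 over the 6 samples), 3 rose (ERBB2, ERBB3 and NRG1), 2 fell (ERRFI1 and CBL) and 2 did not pass (EGFR and LRIG3), by limma with a Benjamini-Hochberg adjusted p under 0.05. ERBB4 and LRIG1 were below the filter. The same test called 56.9% of all 12656 rows tested, with 30.7% higher and 26.2% lower in adapted cells, so a call alone does not set these genes apart from the rest of the table. The values of the groups did not overlap for 7 of the 9 genes, 5 of them among the 7 tested, against 66.3% of all rows tested. An exact permutation test of 1 gene in 3 samples against 3 cannot go below a two-sided p of 0.1.

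**Figure D1:**
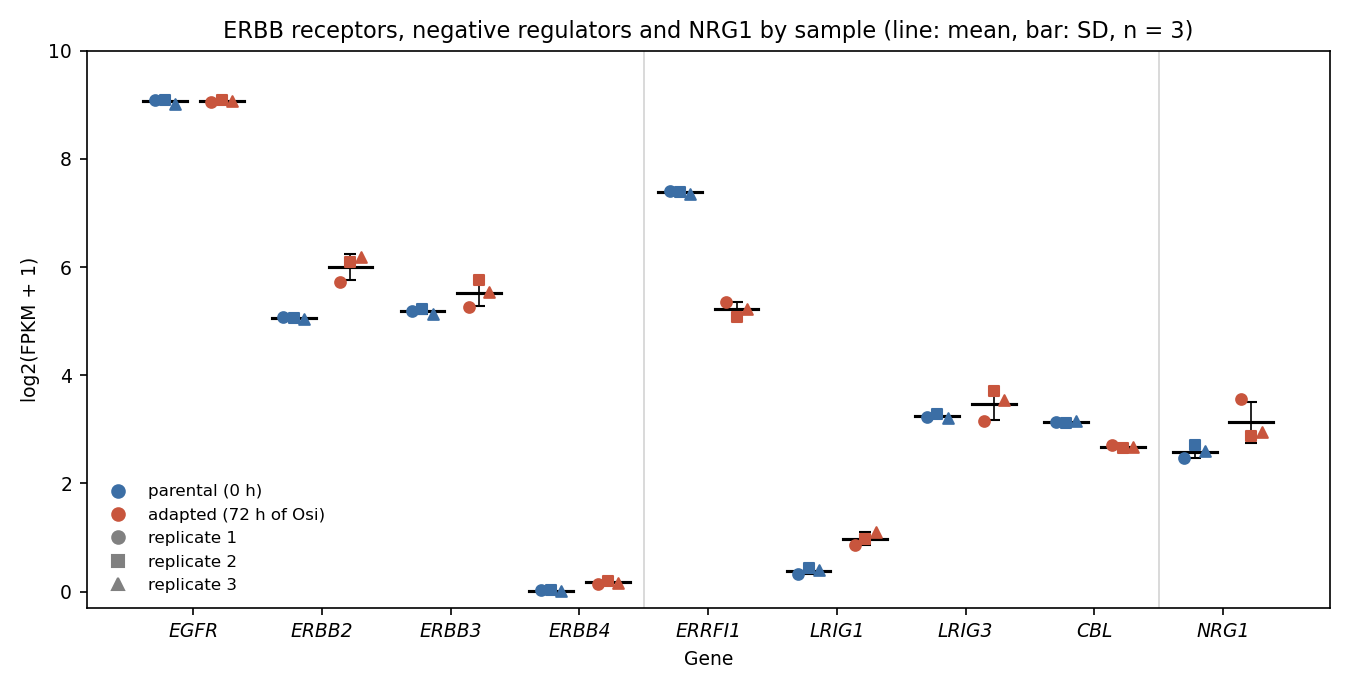
Level of each of the 9 genes, log2(FPKM + 1), in the 3 parental and the 3 adapted samples, each point being 1 sample (its shape the replicate number), each line the group mean and each bar the SD (n = 3). The EGFR points of both groups coincide near 9.06, the ERRFI1 points drop from about 7.38 to 5.22, and the ERBB2 points climb from about 5.06 to 6.0.

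EGFR, the target of the drug, was the most abundant of the 9 mRNAs in every sample. Its values were 9.08, 9.09 and 9.02 in parental samples and 9.05, 9.08 and 9.06 in adapted samples. The groups overlapped, and the means, 535 ± 14.6 and 535 ± 5.81 FPKM (SD, n = 3 each), were nearly the same. The log2 fold change was 0.0026 with a 95% confidence interval of -0.15 to 0.16 (limma, adjusted p = 0.976). By level, EGFR ranked 86 among all rows in parental cells and 82 in adapted cells. The row does not separate transcripts of the mutant allele from others.

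ERBB2, the shared partner of the family, rose. It read 5.08, 5.06 and 5.04 in parental samples and 5.72, 6.09 and 6.18 in adapted samples. Each adapted sample was above each parental sample, and the mean went from 32.4 ± 0.486 to 63.4 ± 10.3 FPKM, a ratio of 1.95. The log2 fold change was 0.93 (SE 0.12, 95% confidence interval 0.66 to 1.20, limma adjusted p = 4.58e-04), and 6.28% of rows tested had a change as high or higher. Its rank by level went from 2099 to 906. On the opposite strand PGAP3 and MIEN1 share 194 and 571 of the 10321 exon bases of ERBB2. They rose too, by 0.83 (limma adjusted p = 4.58e-05) and 0.32 (limma adjusted p = 0.00602) on the log2 scale, and since the use of strand in counting is not stated, reads in the shared bases cannot be told apart.

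ERBB3, the neuregulin receptor that couples to PI3K, rose less. The parental samples were at 5.18, 5.22 and 5.14 and the adapted samples at 5.26, 5.76 and 5.55. The groups did not overlap, but adapted replicate 1 was only just above the highest parental sample. The mean rose from 35.3 ± 1.08 to 45.4 ± 7.84 FPKM, with a log2 fold change of 0.34 (SE 0.12, 95% confidence interval 0.06 to 0.62, limma adjusted p = 0.0425). This call was lost when no filter was set (limma adjusted p = 0.139) and when any single sample other than adapted replicate 1 was left out (limma adjusted p = 0.0852 to 0.117). Without adapted replicate 1 the log2 fold change was 0.47 (limma adjusted p = 9.40e-04), and without adapted replicate 2 it was 0.22.

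ERBB4, the other neuregulin receptor, was near 0 throughout. Its values were 0.02, 0.03 and 0.01 in parental samples and 0.15, 0.20 and 0.16 in adapted samples. These did not overlap, and they stand for mean levels of 0.014 and 0.124 FPKM. The gene was below the filter, and with no filter its difference of 0.15 on the log2(FPKM + 1) scale had a limma adjusted p of 0.00295.

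The difference between ERBB2 and ERBB3 changed sign between the groups. ERBB2 minus ERBB3, in log2 units, was -0.10, -0.16 and -0.10 in parental samples and 0.46, 0.33 and 0.63 in adapted samples. By these values ERBB3 was the second receptor in each parental sample and ERBB2 in each adapted sample. The shift of 0.59 had an exact two-sided permutation p of 0.1, the smallest this design allows, and the comparison was chosen after the values were seen.

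Of the summed FPKM of the 4 receptors, EGFR made up 88.8%, 88.8% and 88.7% in parental samples and 85.6%, 81.8% and 82.0% in adapted samples. ERBB2 made up 5.40%, 5.29% and 5.47%, and then 8.35%, 10.1% and 11.0%. ERBB3 made up 5.78%, 5.93% and 5.86%, and then 6.03%, 8.01% and 7.03%. EGFR thus remained by far the main receptor transcript, and its share fell by 5.61 percentage points (88.7 ± 0.077% against 83.1 ± 2.13%), while that of ERBB2 was 4.43 points higher and that of ERBB3 1.16 points higher. The sum of the 3 receptors other than EGFR went from 67.8 ± 1.38 to 108.9 ± 17.1 FPKM, and that of all 4 from 602 ± 16.0 to 644 ± 21.8 FPKM. The share of ERBB4 was 0.0023% and 0.0192%.

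**Figure D2:**
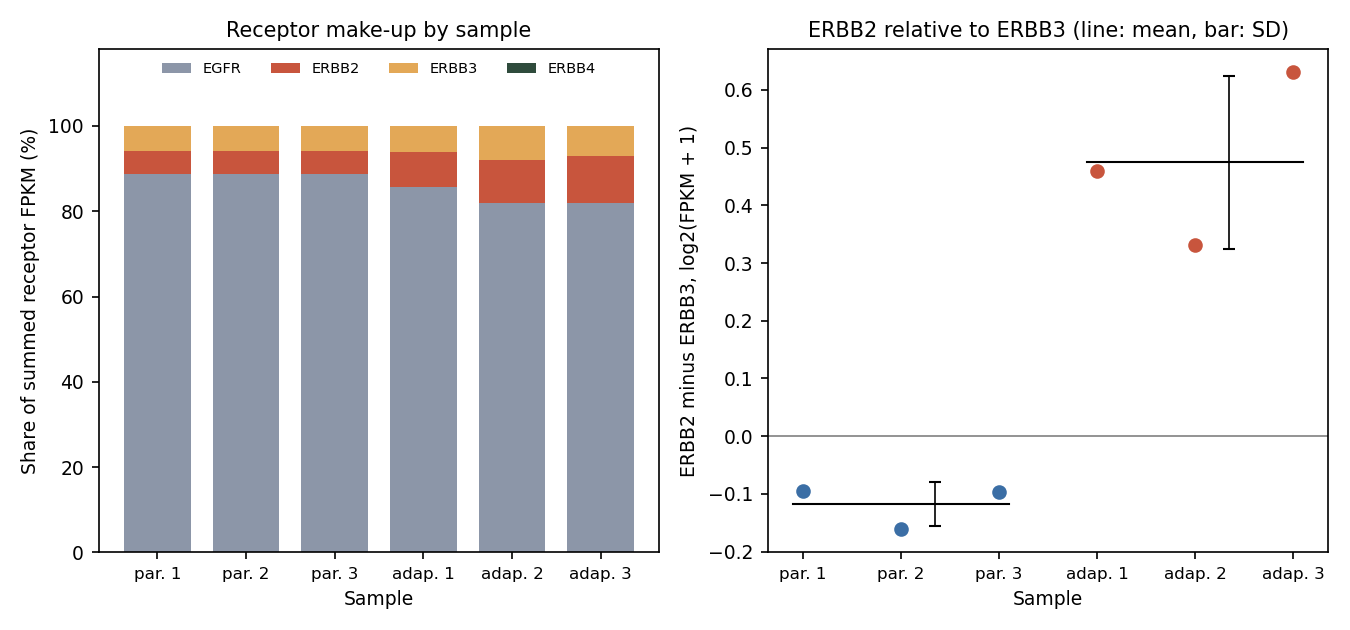
Share of the summed FPKM of the 4 ERBB receptors that each receptor made up, in percent, in each of the 6 samples (left), and ERBB2 minus ERBB3 on the log2(FPKM + 1) scale in the same samples, with the group mean as a line and the SD as a bar (right). EGFR takes 88.7% to 88.8% of each parental sample and 81.8% to 85.6% of each adapted sample, and ERBB2 minus ERBB3 lies below 0 in the 3 parental samples and above 0 in the 3 adapted samples.

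ERRFI1, the feedback inhibitor that binds the kinase domain, had the largest change of the 9 genes on the log2(FPKM + 1) scale. It read 7.40, 7.39 and 7.36 in parental samples and 5.36, 5.08 and 5.22 in adapted samples. Every adapted sample was about 2 log2 units below every parental sample, and the mean fell from 166 ± 2.43 to 36.4 ± 3.55 FPKM. The log2 fold change was -2.16 (SE 0.08, 95% confidence interval -2.35 to -1.98, limma adjusted p = 2.76e-06), and 0.766% of rows tested had a change as low or lower. Its rank by level moved from 272 to 1809. The ratio of the drug target to this inhibitor changed with it: there were 3.22, 3.27 and 3.17 FPKM of EGFR per FPKM of ERRFI1 in parental samples and 13.3, 16.5 and 14.7 in adapted samples (exact two-sided permutation p = 0.1, n = 3 each).

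CBL, the ligase that ubiquitinates activated EGFR, also fell, by far less. It read 3.14, 3.11 and 3.15 in parental samples and 2.72, 2.65 and 2.68 in adapted samples. The spread within each group was small beside the gap, and the mean fell from 7.78 ± 0.120 to 5.42 ± 0.156 FPKM. The log2 fold change was -0.45 (SE 0.06, 95% confidence interval -0.60 to -0.31, limma adjusted p = 7.39e-04). MCAM, on the opposite strand, shares 509 of the 11740 exon bases of CBL and rose by 2.34 (limma adjusted p = 5.36e-06).

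The LRIG genes did not follow ERRFI1 and CBL. LRIG1 was low, at 0.32, 0.44 and 0.40 in parental samples and 0.87, 0.98 and 1.09 in adapted samples. All adapted samples were above all parental samples, with means of 0.307 ± 0.0517 and 0.978 ± 0.155 FPKM. It was below the filter, and with no filter its difference of 0.60 on the log2(FPKM + 1) scale had a limma adjusted p of 0.00501. SLC25A26, which shares 907 of the 7032 exon bases of LRIG1 on the opposite strand, was at 3.45 and 3.20 (limma adjusted p = 0.326). LRIG3 was the more abundant, at 3.24, 3.28 and 3.22 in parental samples and 3.15, 3.71 and 3.55 in adapted samples. Adapted replicate 1 was below every parental sample and the other two were above them. The log2 fold change of LRIG3 was 0.23 with a 95% confidence interval of -0.10 to 0.55 (limma adjusted p = 0.199). Without adapted replicate 1 it was 0.39 and passed (limma adjusted p = 0.00207). LRIG2, the third gene of that family and no member of the set, differed by -0.17 log2 units (limma adjusted p = 0.139).

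NRG1, which encodes ligands of ERBB3 and ERBB4, rose in the main test. It read 2.47, 2.70 and 2.59 in parental samples and 3.57, 2.87 and 2.94 in adapted samples. The groups did not overlap, although adapted replicates 2 and 3 were close to the highest parental sample and adapted replicate 1 stood well above the other two. The mean rose from 5.03 ± 0.482 to 7.95 ± 2.52 FPKM, with a log2 fold change of 0.54 (SE 0.18, 95% confidence interval 0.11 to 0.96, limma adjusted p = 0.0376). The call was lost with no filter (limma adjusted p = 0.142), after quantile normalization (limma adjusted p = 0.0553) and without each parental sample in turn (limma adjusted p = 0.0632 to 0.113). Without adapted replicate 1 the log2 fold change was 0.32 (limma adjusted p = 0.0127).

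**Figure D3:**
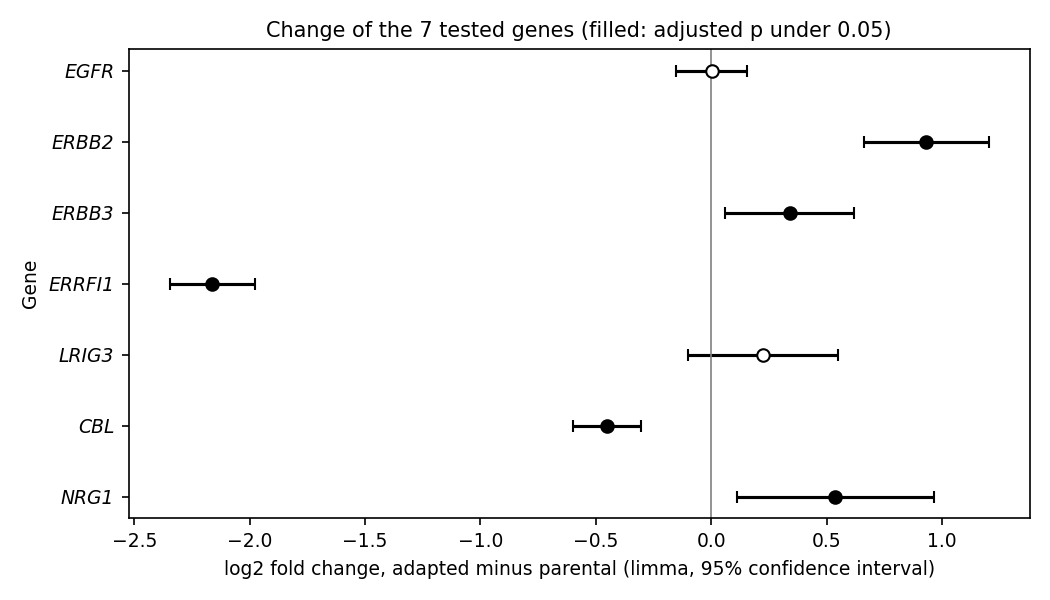
Log2 fold change, adapted minus parental, of the 7 tested genes with 95% confidence intervals from limma, filled where the adjusted p was under 0.05. ERRFI1 lies at -2.16 and CBL at -0.45, ERBB2 at 0.93, and the intervals of EGFR and LRIG3 cross 0.

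Adapted replicate 1 lay nearer to the parental mean than the mean of the other adapted samples did for 7 of the 9 genes, all but EGFR and NRG1, and for 66.0% of the 7202 rows called. Over all rows of the table, rows under the filter included, its correlation with the other adapted samples was 0.991 for each. It was 0.996 between those 2 and 0.997 among parental samples. Over the rows tested, the median SD was 0.058 in parental and 0.129 in adapted samples. The mitochondrially encoded genes made up 8.07% to 8.66% of the linear sum in parental samples and 9.73% to 12.15% in adapted samples. With samples scaled to equal sums without these genes, the log2 fold changes were 0.05 for EGFR, 0.98 for ERBB2, 0.39 for ERBB3 and -2.115 for ERRFI1. No call among the 7 tested genes changed under that scaling. The cause of the higher mitochondrial share was not tested.

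In parental cells the order of level was EGFR, ERRFI1, ERBB3, ERBB2, LRIG3, CBL, NRG1, LRIG1 and ERBB4, and no neighbours in it had overlapping ranges. The closest were ERBB3 and ERBB2, 0.12 apart, and LRIG3 and CBL, 0.11 apart. In adapted cells it was EGFR, ERBB2, ERBB3, ERRFI1, LRIG3, NRG1, CBL, LRIG1 and ERBB4. There the ranges of ERBB2 and ERBB3, of ERBB3 and ERRFI1, and of LRIG3 and NRG1 overlapped, although within each adapted sample ERBB2 was above ERBB3 (by 0.33 to 0.63). ERRFI1 went from more than 2 log2 units above ERBB2 and ERBB3 to a level below ERBB2 that overlapped that of ERBB3.

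Among 11706 tested rows with gene names, those nearest to EGFR by the root mean square difference of the 6 centred values were TMEM131 (0.0129), PIKFYVE (0.0177) and SOCS5 (0.0191), in log2 units, all of which were flat as EGFR was. The rows nearest to ERRFI1 were AREG (0.0624), TGM2 (0.0827) and STRA6 (0.0853), with log2 fold changes of -2.28, -2.08 and -2.28. AREG encodes amphiregulin, a ligand of EGFR.

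The other genes of the pathway were taken from lists of 89 genes in 8 groups, of which 84 passed the filter. Of these 24 rose, 30 fell and 30 did not pass, with a median log2 fold change of -0.08 against 0.03 over all rows tested. Over all 12656 rows tested, limma called 56.9%, with 30.7% higher and 26.2% lower in adapted cells. The counts of the 84 genes and of each list below were not tested against these shares. Such counts alone do not set a list apart from the rest of the table.

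Most of the ligand genes other than NRG1 that were measurable fell. Of 10 genes 5 were tested, 1 of which rose and 4 of which fell, with a median log2 fold change of -0.97. EREG, which encodes epiregulin, went from 6.51 ± 0.09 to 3.55 ± 0.45 (SD and n = 3 in each group; limma adjusted p = 3.26e-05). AREG fell from 6.57 ± 0.01 to 4.28 ± 0.14 (limma adjusted p = 2.36e-06) and TGFA, which encodes transforming growth factor alpha, from 3.63 ± 0.03 to 2.66 ± 0.31 (limma adjusted p = 0.00110). HBEGF, which encodes heparin-binding EGF-like growth factor, rose from 0.59 ± 0.22 to 3.47 ± 0.06 (limma adjusted p = 4.48e-06). BTC fell by 0.32 (limma adjusted p = 0.0282), a call lost in 6 of 18 alternatives (limma adjusted p up to 0.0886). The FPKM of the 10 ligand genes summed to 198 to 209 in parental samples and to 47.2 to 57.5 in adapted samples. The groups thus did not overlap in total ligand mRNA. In adapted samples HBEGF, at a mean of 10.1 FPKM, was of the same order as EREG, at 11.1 FPKM. In parental samples these means were 0.518 for HBEGF and 90.5 for EREG. EGF itself was below the filter, at 1.23 ± 0.08 and 0.61 ± 0.09, and NRG2 and NRG3 were at or near 0.

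Of 7 genes that process ligands, 2 rose, 2 fell and 3 did not pass. RHBDF2, an inactive rhomboid protein needed for maturation of the sheddase ADAM17, fell from 4.86 ± 0.04 to 3.62 ± 0.19 (limma adjusted p = 6.60e-05), and ADAM17, which sheds AREG and TGFA, fell by 0.24 (limma adjusted p = 0.0267). RHBDF1, its relative, rose by 0.25 (limma adjusted p = 0.0134), and BACE1, a protease that cleaves neuregulins, by 0.30 (limma adjusted p = 0.0151). The ADAM17 call was lost in 7 of 19 alternatives (limma adjusted p up to 0.0970), and those of RHBDF1 and BACE1 in 2 each, all without 1 parental sample (up to 0.0630 and 0.0626).

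Of 18 genes of receptor ubiquitination and endocytosis, 4 rose, 5 fell and 9 did not pass, with a median of 0.04. The relatives of CBL moved in opposite directions. CBLB rose from 2.16 ± 0.05 to 3.04 ± 0.37 (log2 fold change 0.88, limma adjusted p = 0.00368) and CBLC fell from 4.30 ± 0.09 to 2.95 ± 0.14 (log2 fold change -1.35, limma adjusted p = 3.20e-05). CBL minus CBLB, in log2 units, was 0.98 ± 0.05 in parental and -0.36 ± 0.40 in adapted samples (exact two-sided permutation p = 0.1, n = 3 each), a comparison chosen after the values were seen. SH3KBP1, an adaptor that joins CBL to endocytic proteins, fell by 0.90 (limma adjusted p = 3.66e-05) and the ligase ITCH fell by 0.53 (limma adjusted p = 0.00186). STAM, which sorts ubiquitinated cargo on endosomes, rose by 0.69 (limma adjusted p = 3.72e-04), and the ligase NEDD4 rose by 0.23 (limma adjusted p = 0.0318), a call lost in 6 of 19 alternatives (limma adjusted p up to 0.114).

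Of 11 other inhibitors of receptor signalling, 4 rose, 3 fell and 4 did not pass, with a median of -0.01. PTPN1, a phosphatase that dephosphorylates EGFR, rose from 4.22 ± 0.02 to 5.07 ± 0.03 (limma adjusted p = 2.31e-05). ERBIN, a scaffold that binds ERBB2, rose by 0.59 (limma adjusted p = 1.43e-04) and the receptor phosphatase PTPRK by 0.58 (limma adjusted p = 5.23e-04). PTPN12 fell by 0.45, PTPN2 by 0.37 and TNK2, a kinase, by 0.33. The PTPN2 call was lost in 4 of 19 alternatives (limma adjusted p up to 0.0765). Beside the falls of ERRFI1 and CBL, genes of related role therefore moved both ways.

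Of 18 adaptors and effectors, 9 rose, 5 fell and 4 did not pass, with a median of 0.14. PLCG1, which binds phosphorylated receptors, rose from 3.03 ± 0.10 to 4.33 ± 0.04 (limma adjusted p = 1.52e-05), and PIK3R1, the main regulatory subunit of PI3K, rose by 0.84 (limma adjusted p = 0.00131). PIK3R3, another regulatory subunit, rose from 3.84 ± 0.03 to 6.18 ± 0.47 (limma adjusted p = 1.02e-04). PIK3R3 and the catalytic subunit gene PIK3CA are among 147 rows that carry a constant in 1 group, here 0.65 in the adapted samples. With it subtracted the log2 fold change of PIK3R3 was 1.69 and that of PIK3CA 0.11, which no longer passed (limma adjusted p = 0.255). None of the 9 genes carries such a constant. GAB1 fell by 0.76, RASA1, a Ras GTPase-activating protein, by 0.71 and PIK3CB by 0.60.

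Of 6 chaperones of the HSP90 system, which stabilizes ERBB2 protein, none rose, 1 fell (PTGES3, by 0.47, limma adjusted p = 0.0108, and 0.0547 with no filter) and 5 did not pass. Of 10 regulators of ERBB gene transcription, 3 rose, 4 fell and 3 did not pass. FOXO4 rose from 2.20 ± 0.03 to 3.18 ± 0.10 (limma adjusted p = 6.09e-05), while FOXO1 and FOXO3, factors known to act on the ERBB3 gene, had log2 fold changes of -0.22 (limma adjusted p = 0.0703) and -0.07 (limma adjusted p = 0.419). TFAP2C and TFAP2A, AP-2 factors known to act on ERBB2, rose by 0.66 (limma adjusted p = 0.00624) and 0.23 (limma adjusted p = 0.0204), the latter lost without parental replicate 2 and without parental replicate 3 (limma adjusted p up to 0.0871). The ERBB2 window that was read held no AP-2 match, and a link between these factors and ERBB2 mRNA was not tested. ZNF217, CTBP2 and SP1 fell by 0.53, 0.52 and 0.38.

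Among 10 genes that report ERK activity, a class to which ERRFI1 also belongs, 1 rose, 6 fell and 3 did not pass, and the median log2 fold change was -1.41. The ETS factors ETV4 and ETV5 fell from 4.03 ± 0.11 to 1.42 ± 0.30 (limma adjusted p = 1.67e-05) and from 4.11 ± 0.03 to 1.67 ± 0.55 (limma adjusted p = 1.77e-04). DUSP6, an ERK phosphatase, had a log2 fold change of -3.01, below that of ERRFI1, and EPHA4 had one of 1.81. SPRY2, CCND1 and DUSP4 did not pass (log2 fold changes of 0.12, -0.31 and -0.42). Without adapted replicate 1, CCND1 and DUSP4 passed as lower (limma adjusted p = 8.62e-04 and 6.19e-04).

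**Figure D4:**
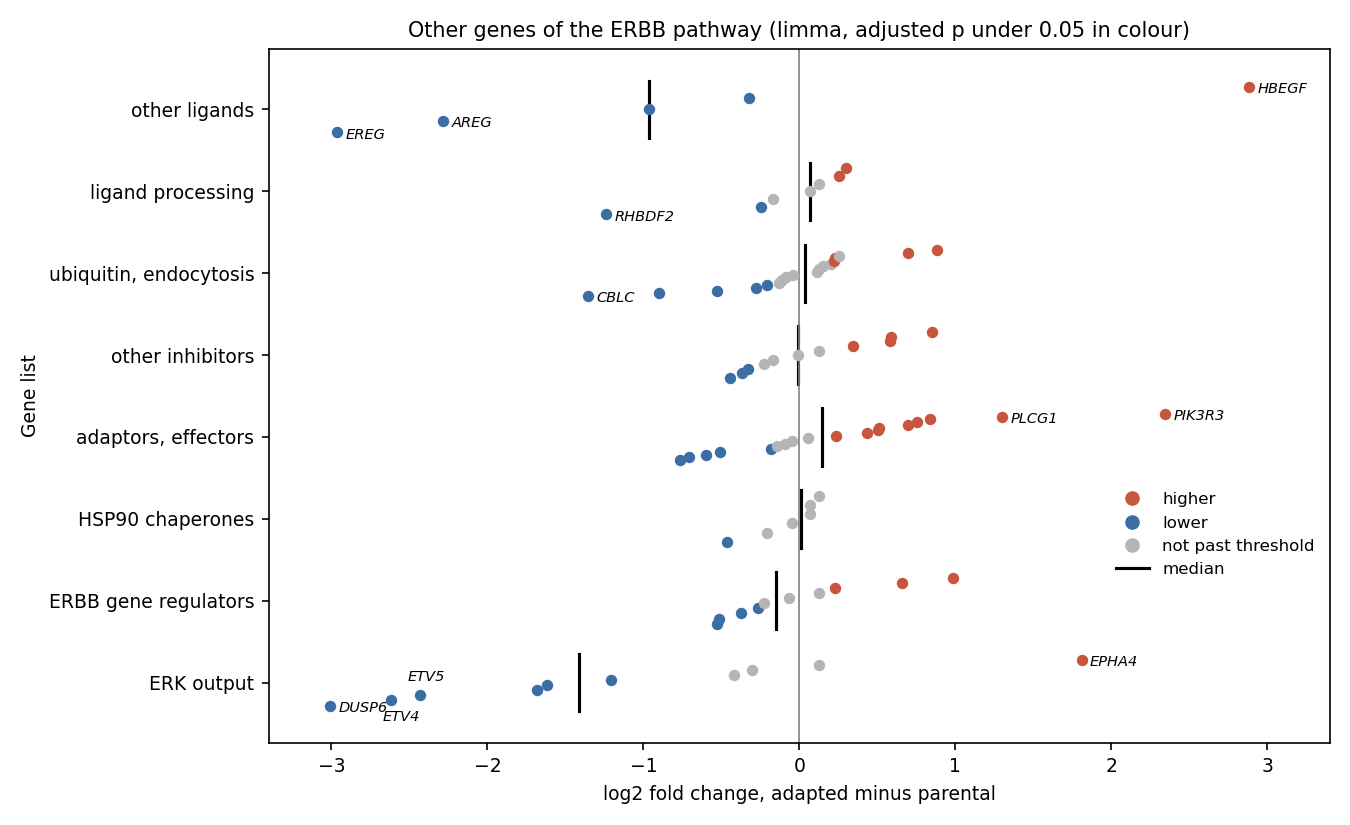
Log2 fold change, adapted minus parental, of the 84 tested genes in 8 lists of the ERBB pathway. Each point is 1 gene of a list, and SPRY2 is drawn in both lists that hold it. Points are colored where the limma adjusted p was under 0.05, and the bar is the list median. Ligand genes and genes that report ERK activity lie mostly to the left of 0, with medians of -0.97 and -1.41, and HBEGF and EPHA4 lie to the right, whereas the other medians lie between -0.15 and 0.14.

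The epithelial markers of the line were high in both groups, with a summed FPKM of 3710 to 3742 in parental and 3491 to 3788 in adapted samples, and of 6 genes 1 rose, 3 fell and 2 did not pass. Among the falls, the call of KRT8 (limma adjusted p = 0.0477) was lost in 9 of 19 alternatives (limma adjusted p up to 0.171). Of the 6 fibroblast markers only COL1A1 was tested, and it rose, with the list summing to 3.04 to 3.17 and 8.60 to 9.33 FPKM. Of the 6 leukocyte markers only CD68 was tested, and it fell, with sums of 74.6 to 77.1 and 14.9 to 29.9 FPKM, while CD3E was at 0 in every sample and PTPRC at 0 in parental samples. The 5 endothelial markers were below the filter and summed to 1.13 to 1.88 and 1.53 to 3.51 FPKM. The part of other cells in the results was not tested.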

How the data were processed

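RNA of 6 samples of H1975 cells was sequenced by the authors. They deposited 1 table of 27216 rows on a log2 scale, 1 column per sample, taken as log2(FPKM + 1). In 27069 rows 2 to the power of a value, minus 1, had 6 decimals, which gives the log2 form with an added 1. The decimals do not show that the unit is FPKM, which was inferred. Another 147 rows held a constant (0.2, 0.65 or 0.66) added in 1 group and were used as deposited. The submitters' processing notes name Bowtie2 2.1.0, STAR, edgeR and hg38 with no roles, and the study's methods name DESeq2, which needs counts. Here limma 3.58.1 (R 4.3.3; lmFit, eBayes with a trend, unpaired) was fitted to rows with a mean of at least 1 (12656 rows), with Benjamini-Hochberg adjustment over all of them and a threshold of 0.05, and was tested on simulated data. FPKM means were computed from the linear values, and an added 1 understates changes of low genes. Depth is unknown, so no counting error is given. Samples were matched to columns by group and replicate number, and 0 other value columns were left unused. Exact permutation tests used scipy 1.17.1 (Python 3.11.15, pandas 2.3.3).

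The 9 genes and all lists were chosen with earlier results of these data known. The text names, from each list, at most 3 genes with the greatest rise and at most 3 with the greatest fall among those called whose groups did not overlap, and for EGFR and each of the 9 with a log2 fold change of at least 1 in size, the 3 tested rows of nearest pattern. Other genes were named after their values were seen. As alternatives, a pseudocount of 0.1, omission of the filter, a mean of at least 3, quantile normalization, equal sums with and without mitochondrial genes, median centring, eBayes without a trend or robust, the replicate number as a block, each sample left out, rows with a constant left out or corrected, and rows outside the annotation left out were tried.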

Additional observations from a re-analysis of the deposited data

How the results depend on the processing

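Over 19 alternatives the log2 fold change of ERBB2 was 0.84 to 1.07 (limma adjusted p at most 0.00804) and that of ERRFI1 -2.23 to -2.09 (at most 3.25e-04). That of CBL was -0.51 to -0.41 over 18 (at most 0.00641), since CBL and NRG1 have means under 3 and were not in the stricter filter. ERBB3 lost its call with no filter (0.34, adjusted p = 0.139) and in 5 of 6 fits without 1 sample, which gave 0.22 to 0.47. NRG1 lost its call with no filter (0.54, adjusted p = 0.142), after quantile normalization (0.50, adjusted p = 0.0553) and without each parental sample (0.32 to 0.67 over all samples left out). LRIG3 gained a call without adapted replicate 1 (0.10 to 0.39). EGFR, uncalled throughout, turned to -0.017 after median centring and to -0.020 and -0.0062 without parental replicate 3 and adapted replicate 2. Its range was -0.020 to 0.016 without 1 sample and -0.020 to 0.053 over 19 alternatives, the highest after quantile normalization. ERBB4 and LRIG1, below the filter, moved to 0.97 and 1.40 with a pseudocount of 0.1, and ERBB4 to 0.13 after median centring. Leaving out 1 sample gave -6.84 to -4.96 percentage points for the share of EGFR, 3.85 to 5.16 for ERBB2, 0.67 to 1.66 for ERBB3 and 0.0156 to 0.0178 for ERBB4. The number of rows called, 7202, was 4532 with the stricter filter and 5763 to 8370 without 1 sample, the highest without adapted replicate 1. The causes were not tested.

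Same-numbered samples did not deviate together (correlations of -0.051, -0.031 and -0.020), so they share only a number. With the replicate number as a block, 6761 rows were called, and of the 9 genes only NRG1 lost its call (0.54, limma adjusted p = 0.0550).

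The median log2 fold change of all rows tested was 0.028, and 0.0046 to 0.0702 under the scaling alternatives, and the share of higher calls was 54.0% and 51.1% to 59.1% under them. Precision is limited by 3 samples per group and by an unknown depth, which bears most on ERBB4 and LRIG1.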

Other observations

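Genes within 500 kb of the members other than NRG1 were listed as a description of the regions, with genes named after their values were seen. Over all rows tested limma called 56.9%, with 30.7% higher and 26.2% lower. Around ERBB2, 20 neighbours were tested, of which 6 rose and 7 fell, with a median log2 fold change of -0.02 and a range of -2.50 to 1.04. GRB7, which encodes an adaptor of ERBB2, fell by 1.0 (limma adjusted p = 1.15e-04), PGAP3 rose by 0.83, and STARD3 and CDK12 were at 0.01 and -0.02, neither past the threshold. EGFR, itself flat, had 3 tested neighbours, all called by limma: LANCL2 went from 6.04 ± 0.01 to 7.37 ± 0.06 (SD, n = 3 each), VOPP1 from 9.01 ± 0.04 to 9.59 ± 0.10 and SEC61G from 11.03 ± 0.08 to 10.09 ± 0.25. Of 5 tested neighbours of ERRFI1, 2 rose and 2 fell, with changes between -0.46 and 0.50, all smaller than that of ERRFI1. Around ERBB3, 13 of 35 rose and 9 fell, and around CBL, 5 of 17 rose and 6 fell.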
